A study of Drosophila melanogaster with 8 samples.

Results

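The Ras to ERK cascade is the relay by which receptor tyrosine kinases pass a growth signal from the cell surface to the nucleus, and KDM5 binding at its genes was examined in the prothoracic gland of Drosophila melanogaster. The cascade was taken as 10 named genes, Ras85D, Sos, drk, Raf, Dsor1, rl, ksr, cnk, csw and dos, among 13945 annotated protein-coding genes. Members were picked by name for their role in the pathway, in a choice made with results of these data known, and the rule used no score. The genes were located in targeted DamID (TaDa) data, in which a Dam methylase fused to KDM5 marks nearby GATC sites and Dam alone serves as the control for accessible DNA.

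Both genotypes carried tub-Gal80[ts] and spok-Gal4, and they differed in the second transgene, which was UAS-LT3-damkdm5 in 4 samples (Dam:KDM5) and UAS-LT3-dam in 4 samples (Dam). The driver confines expression to prothoracic gland cells, and the temperature-sensitive Gal80 kept the transgenes silent for 5 days at 18°C until a shift to 29°C for 2 days. Each sample pooled 100 whole wandering larvae of the third instar from a 24 h egg lay, and the larvae kept their own Kdm5 gene. The values analysed here come from 1 average over replicates, so none of them carries a replicate error, and the depth of each sample is unknown from these values. A binding contrast holds no expression levels, so the tissue label was not checked against marker genes.

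In this cascade an activated receptor recruits the adaptor drk (the fly Grb2), which brings the exchange factor Sos to the membrane to load the GTPase Ras85D with GTP. Ras85D then activates the kinase Raf, Raf phosphorylates the MEK kinase Dsor1, and Dsor1 phosphorylates the ERK kinase rl (rolled). The scaffolds ksr and cnk hold the kinases together, while the phosphatase csw (the fly SHP2) and its docking protein dos help the receptor signal. In the prothoracic gland this route lies downstream of the receptor Torso and promotes production of the steroid hormone ecdysone.

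KDM5 peaks lay in 7 of the 10 cascade genes (70%), and 38.5% of all protein-coding genes (5364 of 13945) were on the authors' list of bound genes. The listed members were Ras85D, drk, Raf, ksr, cnk, csw and dos. The list lacked Sos, Dsor1 and rl, the genes of the exchange factor, MEK and ERK. The binding score, which is the authors' value for a peak in Dam:KDM5 relative to Dam on a scale whose log base is not stated, reached 8.6 at Ras85D. The other listed members scored 5.99 (Raf), 4.8 (dos), 3.45 (csw), 3.36 (ksr), 3.05 (drk) and 2.55 (cnk). Ras85D thus stood well above the rest, and the median over the 7 genes was 3.45, against 4.75 over all listed protein-coding genes. Only Ras85D, Raf and dos were above that median. The Raf score of 5.99 came from a peak over a start of Ilp6, a gene inside Raf, 6692 bp from any Raf start.

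**Figure D1:**
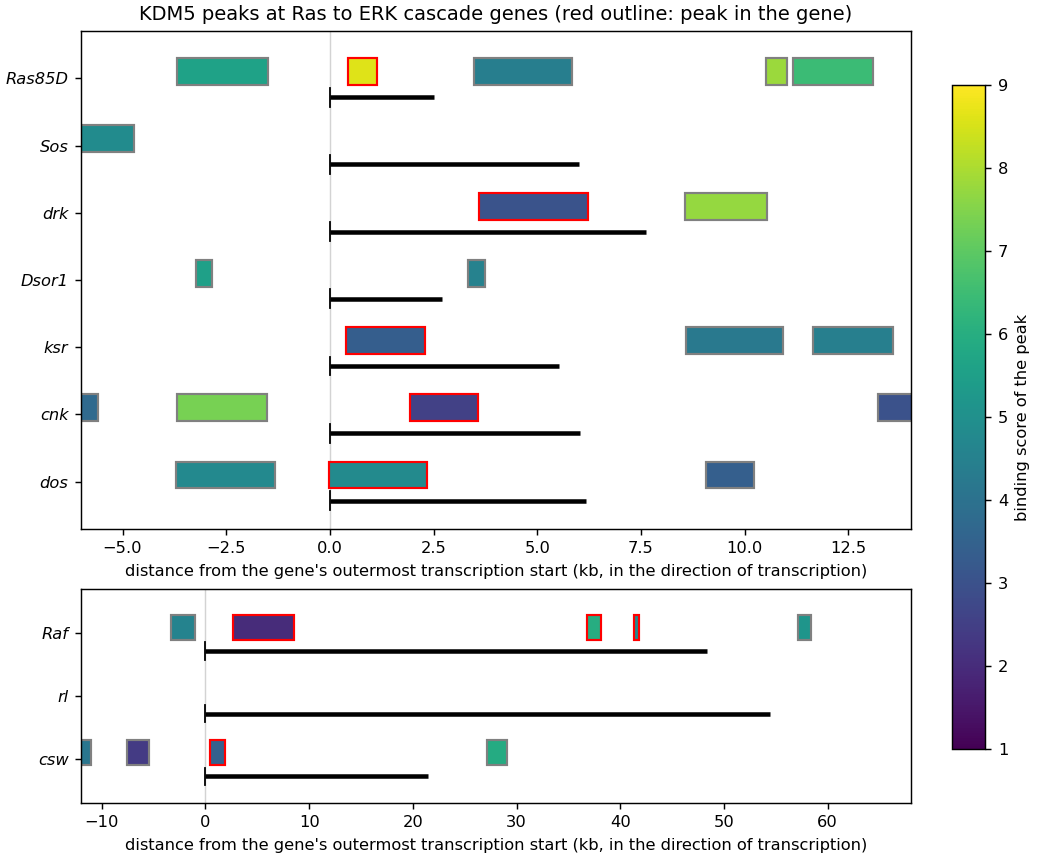
Map of KDM5 peaks at the 10 cascade genes, with distance in kb from each gene's outermost transcription start on the x axis, the gene as a black line and each peak coloured by its binding score (red outline for peaks in the gene, grey for other peaks close to it). Peaks farther from a gene were not drawn, so blank stretches far from a gene need not be free of peaks. Peaks lay in 7 genes, and no peak lay in Sos, Dsor1 or rl.

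The sequence around the strongest member is shown first, because the Ras85D peak had the highest score of the cascade and did not cover the start of the gene. Ras85D is transcribed from 1 annotated start on the minus strand (FBgn0003205, chr3R:9510561-9513067, dm6). The window from 250 bases before to 50 after that start (chr3R:9513018-9513317, RefSeq Release 6 sequence of the dm6 build, read on the minus strand, 5′ to 3′) is printed with matches to the DRE core TATCGAT in capitals, a motif bound by the promoter factor DREF. Of all 13945 such windows, taken at the outermost start of each protein-coding gene, 18.2% held TATCGAT on either strand. In Ras85D the matches overlapped and began 21 and 20 bases before the start. The Raf window (chrX:2340048-2340347, plus strand) belongs to the internal start of transcript Raf-RA and held 1 match, which began 3 bases before the start. The nearest peak to that start lay 2996 bp away. Among the 17 annotated starts of the members, only the 2 printed here held a match.
Ras85D promoter: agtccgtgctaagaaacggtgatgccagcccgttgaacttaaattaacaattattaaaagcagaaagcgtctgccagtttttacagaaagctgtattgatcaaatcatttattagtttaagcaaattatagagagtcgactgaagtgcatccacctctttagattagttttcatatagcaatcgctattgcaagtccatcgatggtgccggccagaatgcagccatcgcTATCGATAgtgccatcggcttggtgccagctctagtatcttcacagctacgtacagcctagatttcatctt
Raf-RA promoter: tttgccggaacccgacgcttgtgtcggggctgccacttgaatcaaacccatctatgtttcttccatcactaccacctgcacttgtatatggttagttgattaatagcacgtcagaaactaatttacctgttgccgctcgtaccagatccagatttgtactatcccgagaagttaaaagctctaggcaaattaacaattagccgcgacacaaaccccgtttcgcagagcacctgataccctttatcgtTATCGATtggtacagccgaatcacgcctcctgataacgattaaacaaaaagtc
The next pair of sequences shows where peaks began, with the GATC sites, at which Dam can act, in capitals. Each is 300 bases and starts at the site that bounds the peak on the side of the gene's start. The Ras85D stretch lies inside the gene (chr3R:9512333-9512632, minus strand), and the dos stretch spans the transcription start (chr3L:2589395-2589694, plus strand).
Ras85D peak edge: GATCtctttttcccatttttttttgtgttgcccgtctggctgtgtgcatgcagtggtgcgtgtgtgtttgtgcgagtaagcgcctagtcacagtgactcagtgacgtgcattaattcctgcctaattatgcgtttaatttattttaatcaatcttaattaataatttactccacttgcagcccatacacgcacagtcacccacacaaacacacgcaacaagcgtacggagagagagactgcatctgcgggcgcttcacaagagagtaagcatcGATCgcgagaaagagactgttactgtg
dos peak edge: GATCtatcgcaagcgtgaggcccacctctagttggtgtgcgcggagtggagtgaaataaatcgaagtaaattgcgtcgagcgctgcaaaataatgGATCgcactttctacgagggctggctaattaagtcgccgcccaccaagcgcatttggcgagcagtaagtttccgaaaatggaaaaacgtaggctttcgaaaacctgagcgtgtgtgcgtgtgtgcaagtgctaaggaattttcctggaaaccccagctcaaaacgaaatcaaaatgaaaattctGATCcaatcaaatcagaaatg
The Ras85D stretch held 2 GATC sites and the dos stretch 3. All 4931 peak starts and ends of the series fell at such sites, so a peak border is known only to the nearest site. A sequence match describes the letters in a window and does not show that a factor was bound.

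Ras85D encodes the small GTPase at the centre of the cascade. Its single peak (chr3R:9511929-9512630) was 702 bp wide, ranked 73 of 4931 peaks by score and had a false discovery rate (FDR, the expected share of false peaks at that level as the peak caller estimated it) of 7.71e-17. Only 1.5% of peaks scored as high or higher. The peak spanned 3 GATC fragments, the fewest that any peak had and the number found in 649 peaks, and it overlapped no other protein-coding gene. It began 437 bp downstream of the transcription start, with 161 bp in 5′ UTR, 207 bp in coding sequence and 334 bp in intron. Further peaks flanked the gene. One of 5.62 lay 1497 bp upstream of the start over Kdm3, CG8176, mRpL47 and Rlb1, where Kdm3 encodes another histone demethylase of the JmjC family. One of 4.39 lay 966 bp past the 3′ end over rump, an RNA-binding protein gene.

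Genes of the receptor-proximal step differed in where their peaks lay. The docking protein gene dos (FBgn0016794; 3L, 2589414 to 2595590, plus strand) was the sole member whose transcription start was covered by a peak. That peak (2589396 to 2591752) scored 4.8 with an FDR of 4.63e-14 and ranked 2227. It began 18 bp before the start and extended 2338 bp into the gene, with 1485 bp in 5′ UTR, 788 bp in intron and 66 bp in coding sequence. A neighbouring peak of 4.76, shared by msn and RpL8, ended 1317 bp upstream of dos, so the intervals on both sides of that start carried peaks of nearly the same score.

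The phosphatase gene csw (FBgn0000382; X, 2094234 to 2115701, plus strand) has 3 annotated starts, and its peak lay near the outermost of them. The peak (2094677 to 2096116) began 443 bp downstream of that start, scored 3.45 and ranked 3565, with an FDR of 0.00528. It held 488 bp of coding sequence, 91 bp of 5′ UTR and 861 bp of intron. The internal starts of csw-RB and csw-RC lay 6173 bp and 12133 bp from the nearest peak. The peak took up 6.71% of the gene, the smallest share among the listed members.

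The adaptor gene drk (FBgn0004638; 2R, 13495222 to 13502841, minus strand) carried its peak far from its starts. The peak (13496607 to 13499234) scored 3.05, ranked 3960 and had an FDR of 4.04e-09. It lay 3059 bp from the nearer of both drk starts and 1385 bp from the 3′ end, and contained 555 bp of coding sequence, 371 bp of 3′ UTR and 1699 bp of intron. The protein-coding start nearest its centre belonged to mars, which overlaps drk on the other strand and was not listed. A higher peak of 7.74 (rank 282) over bbc, an enzyme gene of phospholipid synthesis, lay 937 bp past the 3′ end of drk. GATC sites were sparsest in drk among the members, at 12 sites in 7620 bp (635 bp per site). Within 1 kb to either side of its outer start, in or outside the gene, there were 2 sites.

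The exchange factor gene Sos (FBgn0001965; 2L, 13813816 to 13819824, plus strand) had no peak. The nearest one, of 4.84 over Adat1 and CAH1, lay 4713 bp upstream of its only annotated start, and the next on the downstream side, of 4.13 over Arpc1 and Orc5, lay 8395 bp past its end. Sos spans 6009 bp with 34 GATC sites, or 177 bp per site, so the gene was sampled more densely than the genome at 358 bp per site. The nearest protein-coding gene, CG16865, lies 499 bp away and was not listed.

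The scaffold genes were listed with low scores, and their peaks lay in coding sequence. The peak of ksr (FBgn0015402; 3R, minus strand, 5481604 to 5483515) scored 3.36, ranked 3657 and had an FDR of 3.52e-07. It began 391 bp downstream of the single ksr start, and all of its 1912 bp were ksr coding sequence. The same bases are intronic in Hcs, the holocarboxylase synthetase gene on the other strand, whose nearest start was 6705 bp away and whose listed score of 4.23 came from a different peak. The peak of cnk (FBgn0286070; 2R, minus strand, 17416430 to 17418084) scored 2.55, ranked 4424 and had an FDR of 0.00713, the weakest of the leading peaks of the members on both measures. All of its 1655 bp were coding, and it lay 1504 bp from the nearer of both cnk starts. A stronger peak of 7.37 over l(2)k01209 lay 1515 bp upstream of the outermost cnk start.

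Among the kinases, Raf was the sole listed gene and the sole member with more than 1 peak. It is a 48405 bp gene (FBgn0003079, listed under its older name phl; X, 2295466 to 2343870, plus strand) with 3 peaks, all wholly in its introns. The highest, of 5.99 (2332301 to 2333606; rank 1220; FDR of 2.76e-13), coincided with Ilp6, an insulin-like peptide gene that lies on the opposite strand inside Raf. It covered an annotated Ilp6 start, with 767 of its 1306 bp in Ilp6 5′ UTR, and lay 6692 bp from the nearest Raf start. A peak of 4.78 (2336815 to 2337302; rank 2258) overlapped no other protein-coding gene and lay 2996 bp upstream of the internal start of Raf-RA, although its centre was nearest to a start of Ilp6. The broadest member peak, of 1.97 over 5890 bp (2298154 to 2304043; rank 4822; FDR of 0.00319), lay 2688 bp downstream of the outer start of Raf-RE. Its score was exceeded or equalled by 97.8% of peaks. Weighted by peak width, the 3 Raf peaks averaged 2.83.

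Dsor1, the MEK gene (FBgn0010269; X, 9247342 to 9250037, plus strand), had peaks on both sides but none inside. A peak of 4.55 over CG17754 began 623 bp past its 3′ end, and a peak of 5.5 over Larp7, a gene for an RNA-binding protein, ended 2848 bp upstream of its outer start. The neighbour amx, which lies 5 bp from Dsor1, was not listed either. Dsor1 held 20 GATC sites in 2696 bp, or 135 bp per site, the densest sampling of the members.

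rl, the ERK gene (FBgn0003256; 2R, 1071462 to 1125927, plus strand), was farthest from any peak. It is the longest member at 54466 bp, with 163 GATC sites (334 bp per site), and 48.6% of its bases were soft-masked as repeats in the reference, against 7.54% to 19.3% in the other members and 20.1% of the chromosome arms. The nearest peak lay 216351 bp past its end, over Yeti, and scored 2.82. The next peak along the arm was 3.66 Mb away. In the 4.78 Mb before that peak, 30 protein-coding genes are annotated and 1 of them, Yeti, was listed (3.33%), against 1137 of 2822 (40.3%) on the rest of the arm. This stretch was drawn to end at that peak, so it holds 1 peak by definition and its low share follows from the boundary. GATC sites were as frequent there (327 bp per site) as on the rest of the arm (347 bp per site), while 39.2% of bases were soft-masked, against 15.8%. No other protein-coding gene lies within 100 kb of rl, and the nearest, CG40498 at 120209 bp, was not listed. Across the genome 9 protein-coding genes share that property, rl among them, and none was listed. The part of repeats in the missing peaks was not tested.

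**Figure D2:**
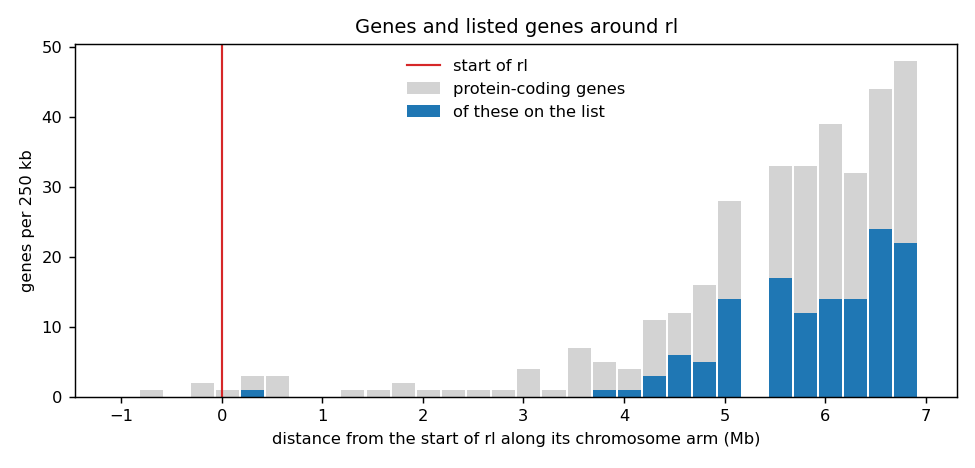
Protein-coding genes (grey) and those on the list (blue) per 250 kb along the arm, plotted by distance in Mb from the start of rl (red line). The stretch up to 3.66 Mb past the end of rl holds 1 listed gene, Yeti, and was drawn to end at the next peak.

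Taken by rank, the 9 member peaks were spread over most of the range of the series. Of these, 4 scored at or above the median of all peaks (4.55) and 5 below it. Their widths ran from 488 to 5890 bp with a median of 1655 bp (1456 bp over all peaks). Of the 9 peaks, 7 overlapped no protein-coding gene besides the member. The Raf peak of 5.99 was shared with Ilp6 and the ksr peak with Hcs. The share of unshared peaks over the whole series was not computed, so the count of 7 has no background here.

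**Figure D3:**
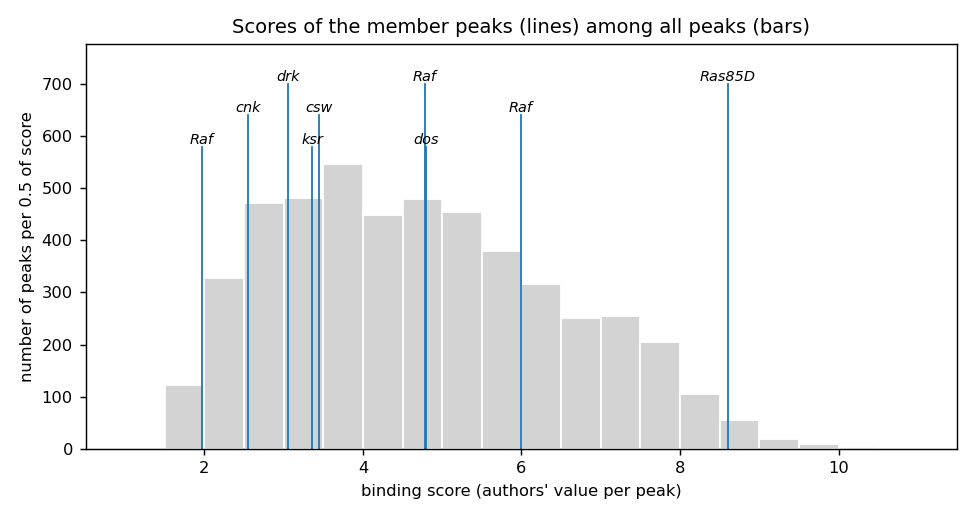
Binding scores of the 9 member peaks (blue lines, labelled by gene) over the distribution of all 4931 peaks (grey bars, number of peaks per score bin). Ras85D at 8.6 lies in the upper tail, and the lowest Raf peak at 1.97 near the lower end.

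Peaks were also placed relative to transcription starts. A total of 5 members (Ras85D, Raf, ksr, csw and dos) had a peak within 1 kb of an annotated start, or 50%, against 39.9% of all protein-coding genes. In Raf this peak was not in the gene but over CG2865, 967 bp upstream of the outer start, with a score of 4.58. In Ras85D, ksr and csw the peak began 391 to 443 bp downstream, and dos was covered at the start itself. Of the 9 peaks, 8 lay wholly downstream of the gene's outermost start, a direction that the rule of overlap with the gene favours.

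Motif letters in the promoter windows were counted at the outermost start of each gene, in the members as in all protein-coding genes. GAGAG, the core letters bound by GAGA factor, occurred at 5 of the 10 outermost member starts (Ras85D, Sos, drk, Dsor1 and ksr), against 29.7% of all genes. TATAAA occurred at 5 as well (Sos, Dsor1, rl, cnk and dos), against 45.8%. TATCGAT occurred at 1, Ras85D, against 18.2%, and the E-box CACGTG at none, against 4.2%. Over all 17 annotated starts of the 10 genes, GAGAG was also found at the inner drk and cnk starts, TATAAA at the inner cnk start and TATCGAT at the internal Raf start. Sos, which had no peak, held 5 matches to TATAAA, the most of any start. Each motif was searched on both strands, and overlapping matches were counted separately.

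The neighbourhoods of the members also differed in how often genes were listed. Around Ras85D, 24 of 34 other protein-coding genes within 100 kb were listed (70.6%), and around ksr and cnk 21 of 32 each (65.6%). The share was 55% around csw (22 of 40), 42.9% around Sos (15 of 35), 41.4% around Raf (12 of 29) and 39.1% around dos (9 of 23). It was lowest around Dsor1 (12 of 40, 30%) and drk (10 of 36, 27.8%). Listed and unlisted members overlapped in this measure, as drk was listed among few bound neighbours and Sos was unlisted among more. Members were also longer than most genes, with a median length of 6107.5 bp against 2166 bp. With all protein-coding genes divided by length into 10 classes of equal size, the share listed in the member's own class was as follows: 43.6% for Ras85D and Dsor1, 45% for Raf, csw and rl, 51.9% for Sos, ksr, cnk and dos, and 55.7% for drk. The part of gene length in the members' count was not tested.

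**Figure D4:**
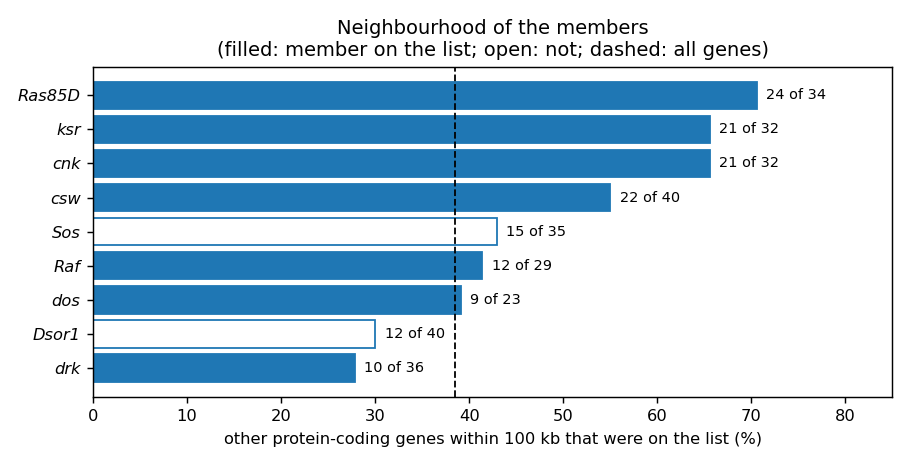
Percent of the other protein-coding genes within 100 kb of each member that were on the list (bars, with counts), filled where the member was listed and open where it was not. The dashed line marks the 38.5% of all protein-coding genes, and rl is left out because it has no neighbour in the window.

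Genes that work with the cascade, and some relatives, were taken in 5 further lists. Of their 41 genes, 33 were listed (80.5%, with 38.5% over all protein-coding genes). The median length of the 41 genes was 5862 bp, against 2166 bp over all protein-coding genes. The part of gene length in the counts of the related lists was not tested. The list of Ras processing genes, GTPase regulators and related GTPases accounted for 10 of 12, with a median score of 4.42. The guanine exchange factor gene Rgl scored 8.06 and Ras64B, a relative of Ras85D, 7.82 in a peak shared with Rop. Sras, the protease that trims Ras after prenylation, scored 7.23, and the methyltransferase gene ste14 (now Icmt) 7.25 in a peak shared with mRpL20. The farnesyltransferase subunits Fntb and Fnta scored 2.74 and 3.5, each in a peak that also lay over other genes. The GTPase-activating proteins that switch Ras off were listed at 4.38 (vap), 2.84 (RasGAP1) and 2.67 (raskol, in a peak shared with CG8173), while Nf1, the neurofibromin gene, was not, with its nearest peak 50013 bp away. Rlip, the gene of a Ral-binding protein, was the other unlisted gene.

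Scaffold, adaptor and chaperone genes were listed in 6 of 8 cases, with a median score of 5.37. Cdc37 and Hsp83, whose products fold Raf and other kinases, scored 5.77 (in a peak shared with dlt and alpha-Spec) and 5.24, and ave, which links cnk to ksr, scored 5.72 in a peak shared with Rpn6. Sur-8 scored 5.5 in the highest of its 3 peaks, Dab 5.11 and 14-3-3epsilon 4.14, the last in a peak shared with CG7156. The adaptor gene Shc and 14-3-3zeta were not listed. Phosphatase genes that act on the cascade were listed in 8 of 9 cases, with a median score of 4.585. Ptp61F scored 6.02 in a peak shared with CG9166, Pp2A-29B 6 in a peak shared with CSN8, and mts, the catalytic subunit of PP2A, 5.93. The ERK phosphatase genes Mkp3 and PTP-ER scored 4.44 and 2.58, and alph was not listed.

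The exon junction complex, which is needed for correct splicing of the long introns of rl, was listed in 3 of 5 cases with a median score of 3.82, eIF4AIII (CG7483) at 4.82, RnpS1 at 3.82 and mago at 3.75, each in a peak shared with another gene, and Acn and tsu were not. Genes of ERK transport and ERK targets were listed in 6 of 7 cases, with a median score of 3.54. The importin gene msk, which carries ERK into the nucleus, scored 7.95 in a peak shared with Arp3. The nuclear targets pnt, cic and aop scored 5.01, 3.8 and 3.28, and S6kII was not listed. Thus the kinase Dsor1 and its substrate rl were unlisted while 3 nuclear targets of rl were listed.

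The other MAP kinase cascades and the receptors gave a comparison by tier. In the JNK cascade 11 of 12 genes were listed, with a median score of 5.55, including the kinase bsk (5.55), its activators hep (5.92) and Mkk4 (3.59), and the transcription factor genes Jra (7.87) and kay (7.08). Only slpr was not. In the p38 cascade all 5 genes were listed with a median score of 4.51, among them lic (5.92), p38b (5.32), p38a and p38c (4.51 each) and Atf-2 (1.58). Peaks were shared within these lists, as hep and lic had the same peak of 5.92, and p38a and p38c the same peak of 4.51. The highest peaks of bsk, Mkk4, msn, p38b and Atf-2 also lay over genes outside the lists. At the level of the terminal kinase, bsk, p38a, p38b and p38c were listed and rl was not. At the level above, hep, Mkk4 and lic were listed and Dsor1 was not. With peaks shared in this way, the contrast rests on few loci. The gene rl also lies in the 4.78 Mb stretch where 3.33% of genes were listed, against 40.3% on the rest of the arm. The end of that stretch was set by a peak, so its low share follows from the boundary. Whether the absence of Dsor1 and rl from the list is particular to the ERK cascade was not tested. Receptor tyrosine kinases were listed in 6 of 8 cases with a median score of 5.44, led by Egfr at 8.43 and Pvr at 7.24. The receptor gene btl was not listed, nor was tor, the gene of Torso, whose nearest peak of 3.96 lay 4803 bp away. No test was made between the lists or between tiers. The share listed in each list was read against the 38.5% of all genes, and the tiers were set side by side gene by gene. Median gene length was 9755 bp in the JNK list, 1906 bp in the p38 list and 14789 bp in the receptor list. Over all protein-coding genes it was 2166 bp.

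**Figure D5:**
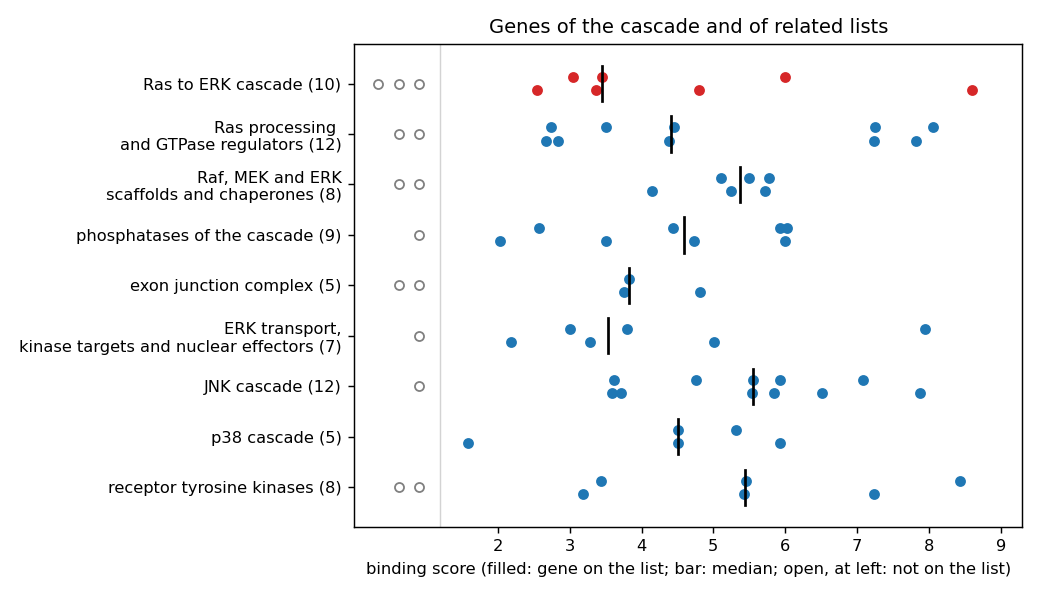
Binding scores of listed genes (filled points; red for the 10 cascade genes, blue for 8 related lists, number of genes in parentheses) with the median of each list as a black bar, and unlisted genes as open points at left. The cascade median of 3.45 lies below the 4.75 of all listed protein-coding genes.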

How the data were processed

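DNA methylated in prothoracic gland cells was sequenced to a stated 20 M clean reads in 4 Dam:KDM5 and 4 Dam samples. The authors mapped reads to the dm6 build, normalised the fusion to Dam alone in damidseq_pipeline, took the mean of replicates and called peaks with find_peaks (FDR of 0.01, min_quant of 0.9), which gave the deposited score per peak and per gene name. Genes overlapping peaks were listed and converted to FlyBase IDs. Versions of these tools were not found in the labels, the methods or the resource table used here.

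Of 5815 listed IDs, 5799 were matched by ID to Ensembl release 115, 11 by current or older symbol, and 5 had no match. The GATC borders of all peaks were checked in the RefSeq genome of the same build, from which windows of 250 bp before to 50 bp after each start were read (Python 3.11.15, pandas 2.3.3). Distances were taken to any annotated transcript start. Rules were tested on simulated data. No statistical test was run, because 1 averaged profile has no replicates and genes are not replicates of a condition. All cascade genes are named, and for related lists the 2 highest listed genes, the first 2 unlisted by alphabet and further genes for their place in the pathway. Members and lists were chosen with earlier results of these data known. Alternatives covered the definition of a bound gene, the peak threshold, windows and score summaries. The length classes, the repeat shares, the region around rl and the genes without close neighbours were examined after the data were seen.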

Additional observations from a re-analysis of the deposited data

How the results depend on the processing

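With only peaks at or above the median score, 3 members were bound (Ras85D, Raf and dos), beside 2887 of all protein-coding genes (20.7%). The same threshold left 4 genes of the list of Ras processing and GTPases, 4 phosphatases, 1 exon junction gene, 2 genes downstream of ERK and 2 of the p38 cascade. With an FDR under 0.001, 5 members were bound (32.9% of all genes), without csw and cnk, and 4 phosphatases. With 1 gene per peak, 6 members were bound, without drk (29% of all genes), as were 3 scaffold and chaperone genes and 5 phosphatases. Of the 3 peaks in Raf, only the weakest, of 1.97, had a Raf start nearest its centre. The peaks of 5.99 and 4.78 were nearest to Ilp6. With a peak within 1 kb of a start as the rule, 5 members were bound (39.9% of all genes). Overlap by 1 or 100 bp gave the same 7 members (38.7% and 38.1% of all genes). Sos, Dsor1 and rl were bound under none of these rules. Near a start, 4 members (40%) had a peak within 500 bp, 6 (60%) within 2 kb and 5 (50%) with outermost starts only, against 32%, 47.1% and 37.6% of all genes. Of 48 values for related lists, 40 stayed within 1.5 times the main count. Within 250 kb the share of listed genes was 45.8% around cnk and 17.9% around drk (10 of 56). Weighting by width took the Raf score to 2.83. No paired analysis was possible because the values are averages over replicates, and for that reason no replicate could be left out. Peak scores set no limit on weaker binding, since signal outside peaks was not analysed here, and unlisted genes cannot be called free of KDM5.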

Other observations

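Some unlisted genes of the related lists lay beside a peak that was assigned to a neighbour. The start of 14-3-3zeta lay 1686 bp from the Jra peak of 7.87. The exon junction gene tsu ended 380 bp from a peak of 3.92 over Mys45A, and Rlip ended 930 bp from a peak of 3.36. For alph and Nf1 the nearest peaks were 30125 bp and 50013 bp away. These genes were picked after their values were seen.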
